A study of Mus musculus with 34 samples.

Results

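Collagen genes were followed in the kidneys of mice with and without polycystic disease. Each gene encodes 1 chain of a triple-helical protein of the extracellular matrix. Fibrillar collagens (types I, III, V and XI among others) pack into the fibers of connective tissue and scar. The type IV collagens form the sheet-like network of basement membranes, in which Col4a1 and Col4a2 chains are present nearly everywhere and Col4a3, Col4a4 and Col4a5 chains build the mature membrane of the glomerular filter, where defects in them cause Alport syndrome. Other families coat fibrils (the fibril-associated or FACIT collagens), form beaded filaments (type VI), short-chain networks (types VIII and X) or anchoring fibrils (type VII), or span the cell membrane.

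All genes whose symbol consists of Col, a number, a and a number were taken, which gave 44 of the 23509 genes in the count tables. The set was divided into 11 fibrillar genes, 8 basement membrane genes (Col4a1 to Col4a6, Col15a1 and Col18a1) and 25 other genes. Of the other genes, 9 encode FACIT collagens, 6 type VI chains, 3 network chains and 4 transmembrane chains, and Col7a1, Col26a1 and Col28a1 make up the rest.

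Kidney polyadenylated RNA came from 34 C57BL6 mice at P28 (postnatal day 28), 1 library a mouse. The UNT group (n = 12) was wildtype, non-transgenic and untreated. The PBS group (n = 11) and the RGLS4326 group (n = 11) were both Pkd2-KO (spelled Pdk2KO in the labels), a model in which Cre driven by the Pkhd1 promoter deletes floxed Pkd2 in tubular epithelium, chiefly of the collecting duct, and not in the stromal, vascular and glomerular cells that express many collagens. Both were injected subcutaneously on P10, P11, P12 and P19, with saline or with RGLS4326 at 20 mg per kg, an antisense oligonucleotide against the microRNA miR-17. The study's own text gives another number of PBS mice than the labels, and the labels were followed. The comparison of PBS with UNT mice asked what differs in the polycystic kidney, and that of RGLS4326 with PBS what differs after treatment. Genotype and injection cannot be told apart in the first, because no wildtype mouse was injected.

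Reads assigned to genes numbered 17603122 to 54981992 a library. Levels are given as counts scaled to library size and composition (CPM), and a gene was called different at an adjusted p under 0.05 in edgeR's quasi-likelihood test over the 15644 genes with enough reads. Pkd2 itself ranged from 219.6 to 338 CPM in UNT mice and from 98 to 214 in PBS mice, without overlap, and 170.0 to 237 in RGLS4326 mice. The label of kidney was checked by its markers, and all 5 proximal tubule markers (such as Lrp2), all 4 podocyte markers (such as Nphs1) and all 3 collecting duct markers (such as Aqp2) passed the filter on low counts. Some markers of other cell types, such as Krt5, passed it too, so passing does not single out kidney. In UNT mice the mean summed levels of the 3 lists were 9348, 569 and 561 CPM, against 5.34 CPM for keratinocyte markers. The library of PBS replicate 9 resembled the others of its group least (mean correlation 0.972) and had the lowest summed collagen level of the PBS group, so results that lean on it are also given without it. Library names carry 3 series of numbers (series 1, 2 and 3, 3 or 4 mice a group in each), treated as possible batches.

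Because RGLS4326 blocks miR-17, the collagen 3′UTRs were searched for the complement of its seed, and also for that of miR-29a, a microRNA long known to pair with collagen mRNAs. The 2 mature sequences (RefSeq, GRCm38.p6) are shown with the seed, bases 2 to 8, in capitals.
mmu-miR-17-5p: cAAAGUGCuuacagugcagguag
mmu-miR-29a-3p: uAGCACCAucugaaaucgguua
A match was counted where the longest annotated 3′UTR (GENCODE M21, GRCm38) held GCACTTT or CACTTTA for miR-17, or TGGTGCT or GGTGCTA for miR-29a, on the transcript strand, and it was called an 8mer where both forms were joined. Among the 41 collagen genes tested, 6 (14.6%) held a miR-17 match, compared with 21.2% of the 14170 tested genes with a 3′UTR, and 24 (58.5%) held a miR-29a match, compared with 18.9%. For the 8mers alone, 2 collagen genes (4.88%, against 4.25% of all) matched miR-17 and 14 (34.1%, against 3.29%) matched miR-29a. The miR-29a matches lay in 9 of 10 fibrillar, 7 of 8 basement membrane and 8 of 23 other genes. A match is a stretch of letters and does not show that the site is used.

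The 3 miR-17 8mers in collagen genes all lay in the divergent pair Col4a3 and Col4a4. They are shown in 30 bases of 3′UTR with the match in capitals and the coordinates of the match.
Col4a3, chr1:82719692-82719699, plus strand: ttactaaatgtGCACTTTAtccccactcct
Col4a4, chr1:82452601-82452608, minus strand: ttttaagccagGCACTTTAaataattgtga
Col4a4, chr1:82451549-82451556, minus strand: cacttttcagtGCACTTTAgaataattgaa
The other miR-17 matches were single 7-base matches in Col4a2, Col17a1 and Col26a1 and 2 in Col5a1. For miR-29a, the 8mers of the leading fibrillar and basement membrane genes are shown in the same way.
Col1a1, chr11:94952538-94952545, plus strand: gaaggaatttcTGGTGCTAtagaagctgag
Col3a1, chr1:45348982-45348989, plus strand: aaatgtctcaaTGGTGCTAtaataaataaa
Col4a1, chr8:11199761-11199768, minus strand: ccgtcacaacaTGGTGCTActcccccccct
Col15a1, chr4:47312500-47312507, plus strand: aatccacatatTGGTGCTAgattctgcagg
Col4a5, chrX:141688253-141688260, plus strand: gctcccaccaaTGGTGCTAatatcctctat
Col4a5 held 3 such 8mers, Col5a1 held 2, and Col1a2 only a 7-base match. Col18a1 and Col12a1 held none.

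Type IV genes sit in head-to-head pairs. The annotated 5′ ends of Col4a1 and Col4a2 are 21 bases apart on chromosome 8, those of Col4a3 and Col4a4 are 72 bases apart on chromosome 1, and those of Col4a5 and Col4a6 are 1309 bases apart on chromosome X (GENCODE M21). The promoter windows of the first pair, 300 bases around the start site (RefSeq, GRCm38.p6), share 78 bases read in opposite directions, and the window of Col4a4 is shown for comparison.
Col4a1 promoter, chr8:11312777-11313076, minus strand: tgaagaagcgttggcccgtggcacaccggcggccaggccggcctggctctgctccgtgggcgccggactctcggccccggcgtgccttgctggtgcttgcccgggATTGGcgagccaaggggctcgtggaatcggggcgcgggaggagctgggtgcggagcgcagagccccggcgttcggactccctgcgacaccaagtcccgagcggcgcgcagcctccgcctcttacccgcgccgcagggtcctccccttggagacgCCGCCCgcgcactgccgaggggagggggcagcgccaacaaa
Col4a2 promoter, chr8:11312555-11312854, plus strand: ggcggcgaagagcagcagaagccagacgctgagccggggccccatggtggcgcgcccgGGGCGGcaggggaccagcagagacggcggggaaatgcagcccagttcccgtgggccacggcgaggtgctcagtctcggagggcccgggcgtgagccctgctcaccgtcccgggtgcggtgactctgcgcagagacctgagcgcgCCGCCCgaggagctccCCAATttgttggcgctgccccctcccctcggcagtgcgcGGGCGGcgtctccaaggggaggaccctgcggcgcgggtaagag
Col4a4 promoter, chr1:82586800-82587099, minus strand: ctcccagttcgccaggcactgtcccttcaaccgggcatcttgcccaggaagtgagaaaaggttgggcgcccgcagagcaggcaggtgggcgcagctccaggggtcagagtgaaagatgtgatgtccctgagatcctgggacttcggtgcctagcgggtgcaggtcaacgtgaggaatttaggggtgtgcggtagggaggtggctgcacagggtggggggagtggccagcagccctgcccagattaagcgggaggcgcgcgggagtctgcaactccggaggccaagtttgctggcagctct
Capitals mark CCAAT and GGGCGG on either strand, and within a window none of the marked matches overlap. Col4a1 held 1 CCAAT and 1 GGGCGG, Col4a2 held 1 and 3, and Col4a4 held neither. The GGGCGG of Col4a1 lies in the shared bases and is also 1 of the 3 of Col4a2. Windows were given for 35 collagen genes, 38 windows in all. Of these, 13 (34.2%) held CCAAT, compared with 37.4% of all 32851 windows, and 23 (60.5%) held GGGCGG, compared with 35.7%. TATAAA was found in 5 (13.2%, against 13.6%) and TGANTCA in 1 (2.63%, against 7.81%).

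In the wildtype kidney the collagen transcripts were mostly those of basement membranes. Per kilobase of the longest coding transcript, the highest level was that of Col4a1 at 103 ± 24.3 CPM per kb (SD, n = 12), followed by Col4a3 at 80.6 ± 13.7 and Col4a2 at 69.3 ± 15.1, whose spreads ran into each other. Next came Col3a1 (52.4 ± 19.1), Col1a2 (49.9 ± 13.8), Col18a1 (47.7 ± 6.94) and Col27a1 (42.8 ± 9.04). Col1a1, which with Col1a2 makes type I collagen, stood at 18 ± 8.62 CPM per kb. Summed per kb, basement membrane genes made up 55.8 to 67.2 (median 60.9) percent of the collagen level of an UNT kidney and fibrillar genes 22.1 to 32.4 (median 27.9) percent. In PBS kidneys the order was Col3a1 (330.1 ± 84.5 CPM per kb, n = 11), Col4a1 (312 ± 73.5), Col1a2 (279.7 ± 59.6), Col4a2 (210.2 ± 46.3), Col1a1 (179 ± 44.6) and Col18a1 (171 ± 24.5), and of these neighbours only Col1a2 and Col4a2 were further apart than about 1 SD. With all annotated exons as the length, Col4a1 led in both groups and Col1a2 dropped behind Col1a1 in PBS kidneys. The annotated exons of Col1a2 span 12426 bases, whereas its longest coding transcript has 5348.

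Polycystic kidneys held more collagen transcript than wildtype kidneys. The summed level of all collagen genes was 3369.7 to 5508 (median 4360.4) CPM in UNT, 7240.4 to 16206 (median 13270.5) CPM in PBS and 11247 to 15701 (median 14456) CPM in RGLS4326 mice. Collagen genes together drew 0.294 to 0.521 (median 0.382) percent of the gene reads in UNT mice, 0.762 to 1.71 (median 1.46) percent in PBS mice and 1.25 to 1.67 (median 1.56) percent in RGLS4326 mice. UNT and PBS mice did not overlap, and PBS and RGLS4326 mice overlapped. The fibrillar share of the summed level per kb was 39.7 to 46.8 (median 41.8) percent in PBS mice, every one above every UNT mouse, and 40 to 44.8 (median 43.1) percent in RGLS4326 mice. Whole kidney was measured, so more cells of a type and more RNA per cell cannot be told apart.

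**Figure D1:**
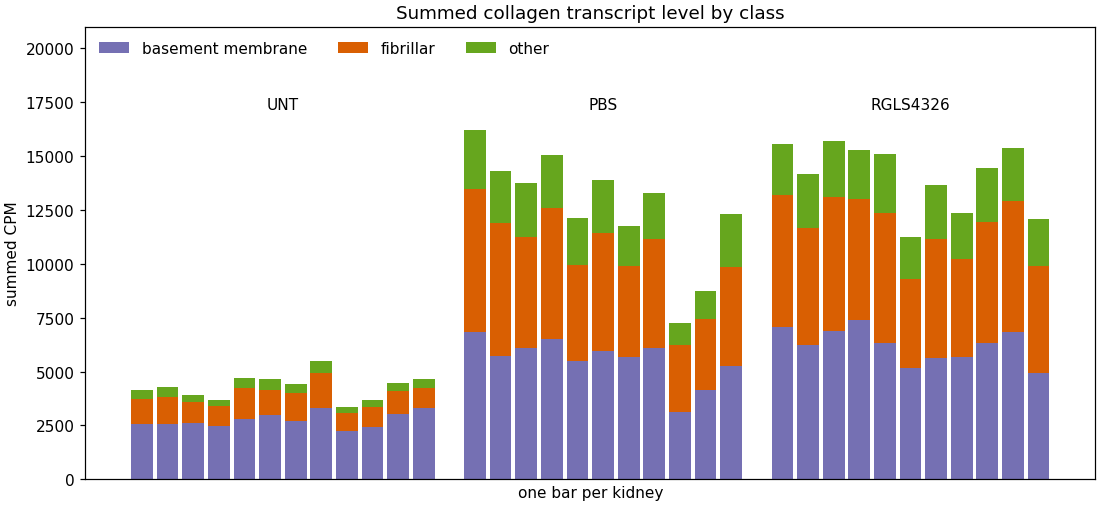
Summed collagen level (CPM, y axis) in each kidney, one stacked bar per mouse, split into basement membrane, fibrillar and other collagen genes. The tallest UNT bar reaches 5508 CPM, and the shortest PBS bar, that of replicate 9, reaches 7240.4 CPM.

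Of the 41 collagen genes tested, 26 rose and 12 fell in PBS compared with UNT mice, and the 12 became 7 when the fraction of reads outside genes was a covariate, 7 in series 1 alone and 8 in series 3 alone. Over all mice and without the covariate this is 38 called (92.7%), where 82.1% of all 15644 genes were called, 43.1% higher and 39.0% lower. The share of all genes called was 70.2% with the covariate and 72.5% and 64.8% in series 1 and 3 alone. The median log2 fold change was 1.34 over the collagen genes and 0.038 over all genes. The groups did not overlap for 18 collagen genes that were higher and 5 that were lower, 23 in all (56.1%), where 42.5% of all genes did not overlap. Col2a1, Col22a1 and Col9a1 had too few reads to be tested, and Col4a6, Col6a5 and Col6a6 were not called. Of these, Col6a5 was called higher in series 1 alone (2.01, adjusted p = 0.0208) and lower in series 2 alone (-1.04, adjusted p = 0.0394). The call in series 1 leaned on PBS replicate 2 (10.6 CPM), since the other PBS mice of that series measured 0.901 and 1.39 CPM. Col10a1 and Col9a2 passed the filter on low counts through the Pkd2-KO groups alone, with no UNT library above it, and Col19a1 with no PBS library above it.

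**Figure D2:**
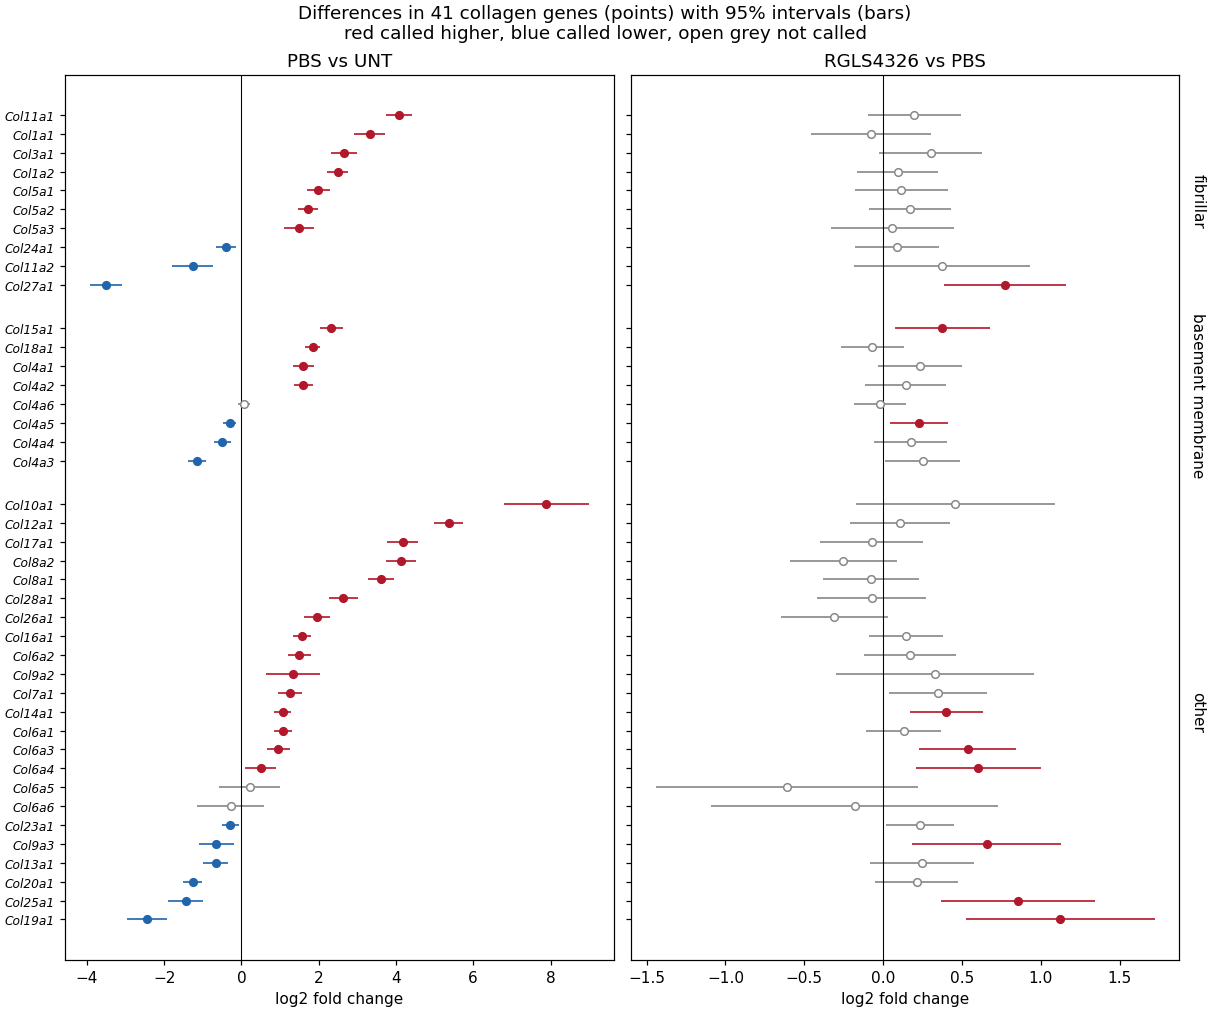
Log2 fold changes (x axes) of the 41 tested collagen genes in PBS compared with UNT and in RGLS4326 compared with PBS mice, points with 95% intervals, grouped by class. The first panel runs from -3.50 (Col27a1) to 7.89 (Col10a1), the second from -0.61 (Col6a5) to 1.12 (Col19a1), with every called gene to the right of 0.

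Among the fibrillar genes, 7 of 10 rose and 3 fell, with a median log2 fold change of 1.86, where 43.1% of all genes were called higher and 39.0% lower. The chains of the major fibers are described first. Col1a1 (chr11:94936224-94953042, plus strand, GRCm38) measured 55.8 to 229 (median 95.9) CPM in UNT mice and 667 to 1426 (median 1079) in PBS mice, or 3.32 ± 0.20 on the log2 scale (fold change ± SE, as for all such values that follow; adjusted p = 2.15e-17, edgeR). Its partner Col1a2 (chr6:4504814-4541544, plus strand) measured 182 to 431 (median 236) and 995 to 1967 (median 1499.9) CPM, a change of 2.49 ± 0.13 (adjusted p = 5.62e-19). All 11 PBS mice exceeded all 12 UNT mice for both chains. Col3a1, the type III chain that accompanies type I in distensible tissue, measured 163 to 528 (median 252) and 1103 to 2734 (median 1744) CPM and rose by 2.66 ± 0.17 (adjusted p = 7.4e-17).

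The type V chains, which set fibril diameter, rose less: Col5a1 by 1.99 ± 0.14, Col5a2 by 1.73 ± 0.13 and Col5a3 by 1.50 ± 0.19 on the log2 scale, the last with overlapping groups. The steepest fibrillar rise was that of Col11a1, a minor fibril chain best known from cartilage, with 0.702 to 1.68 (median 1.21) CPM in UNT and 10.1 to 33.7 (median 21.5) CPM in PBS mice (4.07 ± 0.17, adjusted p = 7.87e-22). Of other collagens known from cartilage, Col10a1 and Col9a2 rose and Col11a2, Col27a1 and Col9a3 fell. Col2a1 did not exceed 0.418 CPM in any UNT or PBS mouse, Acan and Matn1 were below the filter, and Comp, the third marker of the list, averaged 0.799 CPM in UNT and 1.57 CPM in PBS mice (0.96 ± 0.26, called higher). The summed level of the 3 markers was 0.363 to 1.18 CPM in UNT and 0.512 to 4.51 CPM in PBS mice, and its part in the rise of Col11a1 was not tested.

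Among the genes that fell, Col27a1 (chr4:63214004-63334991, plus strand), a fibrillar chain of cartilage and other tissues, changed most. It measured 243 to 478 (median 314) CPM in UNT mice and 20.4 to 49.8 (median 26.9) in PBS mice, a log2 change of -3.50 ± 0.20, which is 11.3-fold lower (adjusted p = 1.29e-17). The highest PBS value lay far below the lowest UNT value. Col11a2 fell as well, with 1.4 to 3.24 (median 2.4) CPM in UNT and 0.431 to 1.33 (median 0.992) CPM in PBS mice (-1.26 ± 0.26, adjusted p = 4.09e-05), again without overlap, and Col24a1, with 1.75 to 3.15 (median 2.25) and 1.06 to 2.55 (median 1.59) CPM, fell with a change of -0.41 ± 0.13 (adjusted p = 0.00363) with overlapping groups. When the fraction of reads outside genes was added to the model, neither Col11a2 (-0.25, adjusted p = 0.517) nor Col24a1 (-0.12, adjusted p = 0.569) was called. Col11a2 was not called in series 3 alone (-0.92, adjusted p = 0.161), nor Col24a1 in series 1 (-0.34, adjusted p = 0.212) and series 3 (-0.43, adjusted p = 0.165).

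The basement membrane genes split by network. Col4a1 (chr8:11198423-11312826, minus strand) measured 470.4 to 1067 (median 658) CPM in UNT mice and 1104 to 2752 (median 2185) in PBS mice, a rise of 1.60 ± 0.13 (adjusted p = 9.59e-14). Col4a2 (chr8:11312805-11449287, plus strand) rose by a similar amount, 1.60 ± 0.12 (adjusted p = 3.94e-14), with 286 to 642 (median 444) CPM in UNT and 747 to 1728 (median 1393) CPM in PBS mice. Neither gene's groups overlapped. Exons of both genes overlap by 22 bases on opposite strands, and whether the counting used strand is not given in the sources used here, so a few reads may be shared.

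Col4a3 (chr1:82586921-82722059, plus strand) went the other way, with 522 to 846 (median 697) CPM in UNT and 135 to 405 (median 325) CPM in PBS mice. Its log2 change of -1.14 ± 0.12 (adjusted p = 3.41e-11) left no overlap between the groups. Col4a4 (chr1:82448423-82586849, minus strand) had a change of -0.49 ± 0.11 (adjusted p = 0.000142), with 289 to 490.3 (median 362) CPM in UNT and 117 to 305 (median 282) in PBS mice. Here the groups overlapped, although all 11 PBS mice lay below the UNT mean. Col4a5 (chrX:141475385-141689234, plus strand) measured 169.6 to 243 (median 190.4) CPM in UNT and 78.7 to 185 (median 159.8) CPM in PBS mice (-0.31 ± 0.089, adjusted p = 0.00196), with overlapping groups. Its neighbor Col4a6, a chain of smooth muscle and Bowman's capsule membranes, measured 17.5 to 26.5 (median 22.2) and 14.6 to 30.1 (median 23.8) CPM and was not called (0.074 ± 0.079, adjusted p = 0.383). The chains of the glomerular network fell while the Col4a1 and Col4a2 chains rose in the same kidneys. Within single series of library numbers, the fall of Col4a4 was not called in series 2 (-0.29, adjusted p = 0.0603), nor that of Col4a5 in series 1 (-0.14, adjusted p = 0.154).

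Podocyte markers moved in the direction of the glomerular network. All 4 fell in PBS mice, with log2 fold changes of -1.71 ± 0.10 for Nphs1 and -0.95 ± 0.063 for Podxl, and their summed level was 517 to 629 CPM in UNT and 204 to 314 CPM in PBS mice. Their part in the fall of Col4a3 was not tested.

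Both multiplexin genes, which sit between basement membrane and interstitium, rose. Col15a1 measured 51.8 to 130.0 (median 79.4) CPM in UNT and 204 to 549.6 (median 405) CPM in PBS mice (2.33 ± 0.15, adjusted p = 1.91e-16). Col18a1, whose C-terminal fragment is endostatin, measured 176 to 317 (median 268) CPM in UNT and 717 to 1147 (median 980.4) CPM in PBS mice (1.84 ± 0.10, adjusted p = 8.37e-19). For neither gene did a PBS mouse overlap with an UNT mouse.

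**Figure D3:**
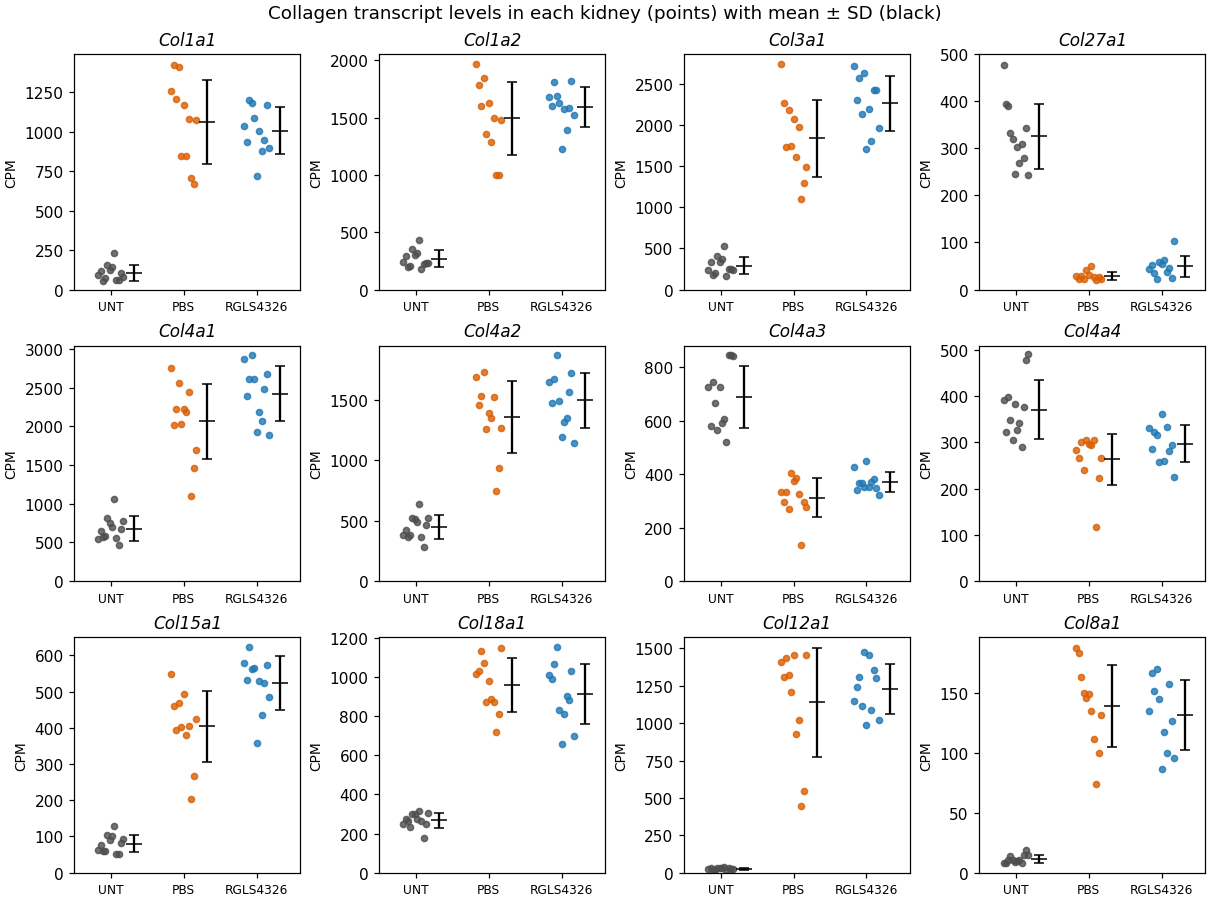
Level in CPM (y axes, from 0) of 12 collagen genes in each kidney, with mean ± SD at the right of each group of 11 or 12 mice. UNT points lie apart from PBS points in every panel but that of Col4a4, and RGLS4326 points overlap PBS points in all of them.

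The widest range of changes was found among the other collagens, of which 15 of 23 rose and 6 fell (median 1.07). Of all genes, 43.1% were called higher and 39.0% lower. Col12a1, a FACIT that bridges fibrils in tissue under tension, was the most abundant of them in PBS kidneys. It measured 17.3 to 36.9 (median 28.3) CPM in UNT and 449 to 1453 (median 1305) in PBS mice, a rise of 5.36 ± 0.18 or 41.1-fold (adjusted p = 4.55e-24). The lowest PBS value was that of replicate 9, and no PBS mouse came near the UNT range.

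All 3 network chains rose without overlap. Col8a1 measured 7.74 to 18.6 (median 10.6) CPM in UNT and 74.1 to 188 (median 146) CPM in PBS mice (3.61 ± 0.16). Col8a2, its partner in the hexagonal networks of vessels and the eye, measured 0.757 to 2.95 (median 1.29) and 17.2 to 38.7 (median 28.3) CPM (4.14 ± 0.19). Col10a1, the marker of hypertrophic cartilage, was close to absent in wildtype kidney, with 11 reads over 12 UNT libraries, 4 of them at 0, against 2738 reads over the 11 PBS libraries. The ratio of the summed levels was 322 (95% interval 180.0 to 647, counting error only), and the fitted log2 value of 7.89 depends on the prior count. Exons of Col10a1 and Nt5dc1 overlap by 18 bases on opposite strands.

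Col17a1, the hemidesmosomal transmembrane collagen of stratified epithelia, measured 0.0908 to 0.673 (median 0.247) CPM in UNT and 3.64 to 7.31 (median 5.1) CPM in PBS mice and rose (4.18 ± 0.20, adjusted p = 2.58e-20). The 2 basal keratinocyte markers rose with it, Krt5 by 1.99 ± 0.20 and Krt14 by 4.47 ± 0.29, with a summed level of 2.86 to 8.05 CPM in UNT and 14.4 to 45.6 CPM in PBS mice. Their part in the result was not tested. The other 3 transmembrane collagens fell, with log2 fold changes of -1.44 ± 0.22 for Col25a1, -0.67 ± 0.16 for Col13a1 and -0.28 ± 0.10 for Col23a1. With the fraction of reads outside genes as a covariate, Col13a1 (-0.45, adjusted p = 0.084) and Col23a1 (-0.28, adjusted p = 0.11) were not called. Nor was Col25a1 in series 1 alone (-0.93, adjusted p = 0.0533), or Col23a1 in series 1 (-0.12, adjusted p = 0.594) and series 3 (-0.43, adjusted p = 0.0626).

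Of the type VI chains, which form microfibrils around cells, Col6a1 (1.07 ± 0.11), Col6a2 (1.50 ± 0.14), Col6a3 (0.96 ± 0.15) and Col6a4 (0.50 ± 0.20) rose, all with overlapping groups. Col6a1 measured 51.5 to 116 (median 77.6) CPM in UNT and 102 to 214 (median 173) CPM in PBS mice, and Col6a3 55.3 to 118 (median 93.4) and 69.7 to 253 (median 175) CPM. Among the FACIT genes Col14a1 rose by 1.07 ± 0.11 and measured 51.9 to 110.1 (median 87.1) CPM in UNT and 101 to 258 (median 180.3) CPM in PBS mice, Col16a1 rose by 1.56 ± 0.11 and Col9a2 by 1.34 ± 0.34, the last not called in series 3 alone (1.69, adjusted p = 0.0605). The FACIT genes that fell had low levels, namely Col19a1, Col20a1 and Col9a3 (-0.65 ± 0.22). Col9a3 was not called in any single series and had the opposite sign with the covariate (0.27, adjusted p = 0.351), and Col6a4 was not called with it (0.59, adjusted p = 0.0714), in series 2 (0.14, adjusted p = 0.663) or in series 3 (0.41, adjusted p = 0.242). Col19a1 measured 0.413 to 0.808 (median 0.599) CPM in UNT and 0.0584 to 0.226 (median 0.0909) CPM in PBS mice (-2.44 ± 0.25), and Col20a1 5.51 to 7.76 (median 6.38) and 2.04 to 3.16 (median 2.76) CPM (-1.26 ± 0.12), both without overlap. Col25a1, a transmembrane collagen, measured 0.321 to 1.23 (median 0.62) CPM in UNT and 0.0606 to 0.431 (median 0.226) CPM in PBS mice and fell (-1.44 ± 0.22, adjusted p = 3.2e-07) with overlapping groups. Col7a1, the anchoring fibril chain, rose by 1.25 ± 0.15, Col26a1 by 1.96 ± 0.17 and Col28a1 by 2.63 ± 0.18. Exons of Col9a3 and Col7a1 overlap those of Tcfl5 and Mir711.

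Markers of collagen-producing stroma rose in the same kidneys. All 7 fibroblast and pericyte markers were called higher in PBS mice, among them Thy1 (4.31 ± 0.15), Acta2 (2.16 ± 0.11), Postn (2.11 ± 0.16) and Pdgfra (0.31 ± 0.11). Their summed level was 309.9 to 487 CPM in UNT and 816 to 1522 CPM in PBS mice. All 5 proximal tubule markers fell, with summed levels of 8034 to 11660.0 CPM in UNT and 700.5 to 2429 CPM in PBS mice. All 3 tested macrophage markers rose (66.2 to 118 CPM in UNT and 304 to 781 CPM in PBS mice), as did all 3 collecting duct markers (424 to 737 and 808 to 2051 CPM). All 4 podocyte markers fell (517 to 629 and 204 to 314 CPM). Of the remaining lists, endothelial markers gave 2 higher and 2 lower of 4, adipocyte markers 1 higher and 0 lower of 2 and Schwann cell markers 1 higher and 1 lower of 2, while the skeletal muscle list never exceeded a summed 3.13 CPM. Reads that fell in no gene made up 9.84 to 11.3 percent in UNT and 5.18 to 9 percent in PBS mice, without overlap. The part of these shifts in the collagen results was not tested.

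Genes that make, fold and crosslink collagen were examined as a list. Of 31 tested synthesis and processing genes, 21 rose and 6 fell in PBS compared with UNT mice (median 0.95), where 43.1% of all genes were called higher and 39.0% lower, shares that also stand beside the next lists. The smallest p values were those of Fkbp10, a prolyl isomerase of the endoplasmic reticulum (2.16 ± 0.093, adjusted p = 2.78e-21), Adamts2, the procollagen N-proteinase (3.27 ± 0.14, adjusted p = 4.29e-21), and Colgalt1, which adds galactose to hydroxylysine (listed as Glt25d1; 1.25 ± 0.059, adjusted p = 2.95e-20). Of 9 receptor and uptake genes 8 rose and 1 fell. The smallest p values were those of the inhibitory immune receptor Lair1 (3.24 ± 0.14), the integrin chain Itga11 (3.60 ± 0.19) and the endocytic receptor Mrc2 (1.77 ± 0.11). Cleavage genes gave 5 of 6 higher and Mmp13 lower (-0.81 ± 0.16), with Mmp14 (3.42 ± 0.12), cathepsin K (Ctsk, 2.18 ± 0.10) and the gelatinase Mmp2 (2.81 ± 0.13) having the smallest p values and Mmp8, at a mean of 1.04 CPM in PBS mice, the largest fold change (4.43 ± 0.36).

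After RGLS4326 treatment no collagen gene was called lower. Of 41 tested, 9 rose and none fell relative to PBS mice (22.0% called), where 33.8% of all genes were called, 15.3% higher and 18.5% lower. With the fraction of reads outside genes as a covariate 0 were called (7 at an unadjusted p under 0.05), where 0.569% of all genes were. With only the RGLS4326 and PBS mice in the model 5 were called, where 29.2% of all genes were. In that fit Col19a1 and Col25a1 had too few reads to be tested. The share of collagen genes called was below that of all genes, and the share called higher was 22.0% against 15.3%. At an unadjusted p under 0.05 there were 12 collagen genes, all higher, and DESeq2 likewise called 9 higher and 0 lower. The median log2 fold change was 0.17 over collagen genes and 0.00224 over all genes. RGLS4326 and PBS mice overlapped for every collagen gene, as they did for all but 0.0639% of genes.

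The main fibrillar chains were not called in either direction after treatment. Col1a1 measured 718 to 1203 (median 1008) CPM in RGLS4326 mice, within the PBS range, and its difference of -0.08 ± 0.19 (95% interval -0.46 to 0.30, adjusted p = 0.753) did not pass the test. Col1a2 measured 1227 to 1821 (median 1604) CPM and the difference was 0.091 ± 0.13 (95% interval -0.17 to 0.35). Col3a1 measured 1711 to 2718 (median 2302) CPM, with 9 of 11 treated mice above the PBS mean, and was not called (0.30 ± 0.16, 95% interval -0.026 to 0.63, adjusted p = 0.137). Col11a1 (0.20 ± 0.14) and Col11a2 (0.37 ± 0.27) were not called either.

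The 1 fibrillar gene called of 10 tested (10%, against 33.8% of all genes) was Col27a1, the one that had dropped furthest. It measured 21.4 to 104 (median 46.7) CPM in RGLS4326 mice against 20.4 to 49.8 (median 26.9) in PBS mice, a rise of 0.77 ± 0.19 (adjusted p = 0.00511) with 9 of 11 mice above the PBS mean. With the fraction of reads outside genes as a covariate it was not called (0.23, adjusted p = 0.34). The highest treated value was still below the lowest UNT value of 243 CPM. In RGLS4326 compared with UNT mice its log2 change was -2.73 ± 0.20.

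Among basement membrane genes 2 of 8 (25%) were called, both higher, where 33.8% of all genes were called, 15.3% higher. Col15a1 measured 358 to 622 (median 532) CPM (0.38 ± 0.15, adjusted p = 0.047) and Col4a5 151 to 207 (median 188) CPM against 78.7 to 185 (median 159.8) in PBS mice (0.23 ± 0.09, adjusted p = 0.0492). Both adjusted values lay just inside the threshold. Without PBS replicate 9, Col15a1 was not called (0.32, adjusted p = 0.0794) while Col4a5 was (0.17, adjusted p = 0.0405), and with the series as a covariate Col4a5 was not (0.23, adjusted p = 0.0529). Col4a3, in which every treated mouse lay above the PBS mean, measured 324 to 451 (median 365) CPM and missed the threshold (0.25 ± 0.12, 95% interval 0.013 to 0.49, adjusted p = 0.0884). That PBS mean was lowered by replicate 9 (135 CPM), while the other PBS mice measured 270 to 405 CPM. The position of every treated mouse above it therefore leans on that library. Col4a4 (0.17 ± 0.11), Col4a1 (0.23 ± 0.13), Col4a2 (0.14 ± 0.12), Col18a1 (-0.069 ± 0.10) and Col4a6 (-0.022 ± 0.081) were not called.

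The 6 other collagens called, of 23 tested (26.1%, against 33.8% of all genes), were of the FACIT, type VI and transmembrane families. Col14a1 measured 191 to 286 (median 226) CPM in RGLS4326 mice (0.40 ± 0.11, adjusted p = 0.0102) and Col6a3 191 to 324 (median 246) CPM against 69.7 to 253 (median 175) in PBS mice (0.54 ± 0.15, adjusted p = 0.0102), each with 11 of 11 treated mice above the PBS mean. Col6a4 (0.60 ± 0.19), Col9a3 (0.66 ± 0.23), Col25a1 (0.85 ± 0.24) and Col19a1 (1.12 ± 0.29) also rose and had mean levels at or under 1.37 CPM in all 3 groups. For Col19a1 this meant 1 to 16 reads in a treated library and 2 to 8 in a PBS library. Col12a1 measured 986 to 1475 (median 1244) CPM in RGLS4326 mice. Col12a1 (difference 0.11 ± 0.16, 95% interval -0.21 to 0.43), Col8a1 (difference -0.076 ± 0.15, 95% interval -0.38 to 0.23), Col10a1 (difference 0.46 ± 0.31) and Col17a1 (difference -0.073 ± 0.16) were not called.

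Values of the same gene in both comparisons are set side by side, with the reminder that PBS mice are the reference in one and the test group in the other, so that the values are not independent. For Col27a1 the log2 fold changes were -3.50 (PBS compared with UNT) and 0.77 (RGLS4326 compared with PBS), for Col4a5 -0.31 and 0.23, for Col9a3 -0.65 and 0.66, for Col25a1 -1.44 and 0.85 and for Col19a1 -2.44 and 1.12. Col15a1 gave 2.33 and 0.38, Col14a1 1.07 and 0.40, Col6a3 0.96 and 0.54 and Col6a4 0.50 and 0.60. RGLS4326 mice still differed from UNT mice in 35 collagen genes (85.4%), 26 higher and 9 lower, where 77.7% of all genes were called, 40.8% higher and 36.9% lower. The 9 lower genes became 5 with the covariate and 7, 5 and 3 in series 1, 2 and 3 alone. The share of all genes called was 76.6% with the covariate and 70.8%, 64.2% and 55.8% in these series. Against UNT mice the treated log2 changes were 3.24 ± 0.20 for Col1a1, 2.96 ± 0.17 for Col3a1, 1.84 ± 0.13 for Col4a1, 5.47 ± 0.18 for Col12a1 and -0.89 ± 0.12 for Col4a3.

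No collagen gene with a miR-17 match was called after treatment. Across all tested genes with a 3′UTR, 30.2% of the 602 genes with a miR-17 8mer and 26% of the 3003 with any match were called higher (medians 0.095 for any match and 0.14 for 8mers), compared with 12.1% of the 11167 without a match (median -0.034). Among the 6 collagen genes with a match, Col4a3 and Col4a4 (8mers) and Col4a2 had the values given above, and the others had differences of Col5a1 0.12 ± 0.14, Col17a1 -0.073 ± 0.16 and Col26a1 -0.31 ± 0.17. All 9 collagen genes called higher were among the 35 without a match (25.7% of them), where 12.1% of all genes without a match were called higher. The 6 genes with a match are too few to compare shares. Among the 24 collagen genes with a miR-29a match 5 were called higher, and among the 17 without one 4 were, where 18.7% of all genes with and 14.2% without a match were called higher.

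Treatment differences were also computed within each series of library numbers. In series 1 alone the 9 called genes had log2 differences of 0.055 (Col9a3) to 0.56 (Col27a1), in series 2 of 0.14 (Col4a5) to 1.16 (Col19a1) and in series 3 of 0.37 (Col4a5) to 1.82 (Col19a1). They were picked by their calls over the same mice, which bears on these signs. Within a series, 0, 3 and 0 collagen genes were called in series 1, 2 and 3, where 54, 4065 and 0 of all genes were, and 3, 10 and 12 collagen genes had an unadjusted p under 0.05. Col1a1 differed by -0.24, -0.17 and 0.14 in series 1, 2 and 3. A test of whether the treatment difference varied with the series called none of 39 collagen genes (edgeR; 2 at an unadjusted p under 0.05, Col11a1 with p = 0.00119 and Col7a1 with p = 0.0133; adjusted p = 0.865 for both). DESeq2's likelihood ratio test called none either, with 2 at an unadjusted p under 0.05.

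**Figure D4:**
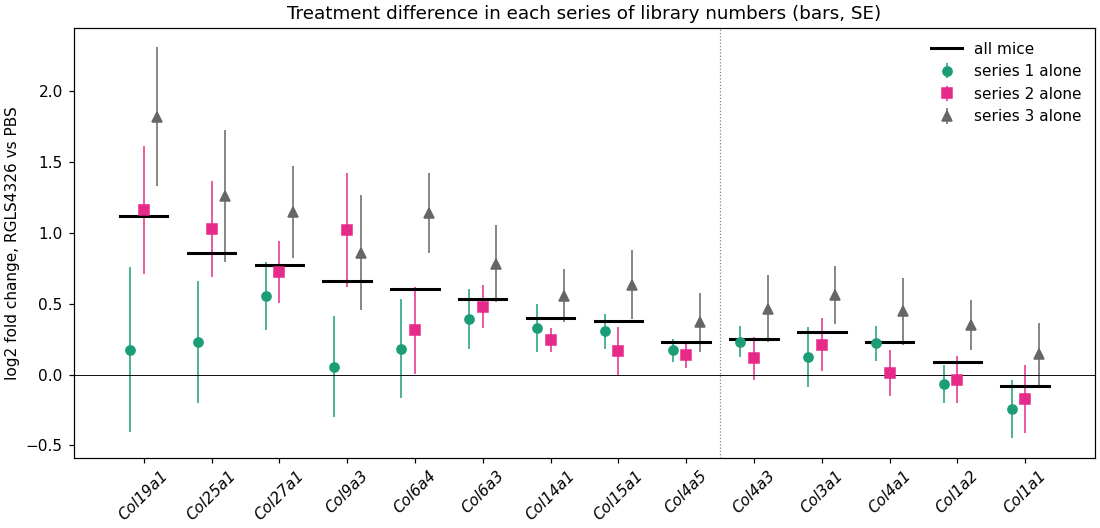
Log2 fold change of RGLS4326 compared with PBS mice (y axis) for the 9 collagen genes called (left of the dotted line) and 5 abundant ones that were not, within each series of library numbers (symbols, bars SE, 3 or 4 mice a group) and over all mice (black lines). The 9 genes were picked by their calls over the same mice, so that their side of 0 is no separate evidence, and Col1a1 lies below 0 in series 1 and 2 and above it in series 3.

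Marker genes and read composition also moved with treatment. The 5 proximal tubule and 4 podocyte markers were all called higher in RGLS4326 than in PBS mice (medians 0.64 and 0.31), and of the 7 fibroblast and pericyte markers only Pdgfra was (0.53 ± 0.11, adjusted p = 0.00265). Their summed levels in RGLS4326 mice were 1678 to 2795, 275 to 346 and 1055 to 1434 CPM. Endothelial markers gave 3 higher and 0 lower of 4, macrophage markers 0 higher and 2 lower of 3 and collecting duct markers 0 higher and 3 lower of 3. Both keratinocyte markers were called lower, as were 1 adipocyte marker of 2 and the single tested marker of the skeletal muscle and of the cartilage list, and 1 Schwann cell marker of 2 was called higher. The share of reads in no gene was 5.18 to 9 percent in PBS and 4.94 to 12 percent in RGLS4326 mice. With that share as a covariate, no collagen gene was called (7 at an unadjusted p under 0.05), and 0.569% of all genes were. The median log2 difference of the collagen genes was 0.14 with it and 0.17 without it, and the 9 genes had differences of 0.11 to 0.61. Its part in the differences was not tested further.

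Genes acting on collagen showed a mixed pattern after treatment. Of 31 synthesis and processing genes 2 rose and 5 fell, where 15.3% of all genes rose and 18.5% fell (list median -0.062). The smallest p values were those of the proteinases Adamts14 (0.57 ± 0.15, adjusted p = 0.00696) and Tll1 (0.47 ± 0.13, adjusted p = 0.00999), which rose, and of Colgalt1 (-0.18 ± 0.059, adjusted p = 0.0186), which fell. Of 9 receptor genes, Ddr2 (0.25 ± 0.087) and Itga1 (0.34 ± 0.12) rose and Ddr1, the epithelial collagen receptor, fell (-0.27 ± 0.084). Of 6 cleavage genes Mmp9 alone was called, lower (-0.63 ± 0.23, adjusted p = 0.035), and Mmp14 (-0.27 ± 0.12) and Mmp8 (-0.55 ± 0.26) were next by p.

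Ratios between chains differed among the groups for some pairs. The log2 ratio of Col4a3 to Col4a1, per kb, was -0.33 ± 0.45 (SD) in UNT, -3.10 ± 0.30 in PBS and -3.07 ± 0.26 in RGLS4326 mice, with every UNT mouse above every Pkd2-KO mouse. By contrast that of Col4a1 to Col4a2 was 0.56 ± 0.072, 0.56 ± 0.10 and 0.66 ± 0.065, with PBS and UNT means closer than 1 SD. Col4a3 to Col4a4 gave 1.14 ± 0.10, 0.48 ± 0.13 and 0.57 ± 0.13, with every UNT mouse above every Pkd2-KO mouse. For type I collagen, a heterotrimer of Col1a1 and Col1a2 chains, the ratio was -1.56 ± 0.30, -0.65 ± 0.11 and -0.82 ± 0.088, and UNT values did not overlap with either Pkd2-KO group. Col3a1 to Col1a1 stood at 1.60 ± 0.23, 0.88 ± 0.22 and 1.26 ± 0.16. The size of a ratio depends on the transcript lengths used, whereas differences between groups do not.

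Within groups, the levels of several pairs of chains varied together. Correlations of log2(CPM + 1) were computed for 11 pairs in each group, 33 relations in all, by permutation over 11 or 12 mice with Benjamini-Hochberg adjustment, and 25 passed by Pearson's r and 23 by Spearman's rho. Some changed when values were centred on the series means. Col5a1 with Col5a2 in UNT mice went from r = 0.715 (adjusted permutation p = 0.0129) to 0.308 (adjusted permutation p = 0.383). Col4a1 with Col4a2 had r = 0.975, 0.968 and 0.958 in UNT, PBS and RGLS4326 mice (rho = 0.972, 0.909 and 0.927). The largest adjusted permutation p among these 3 was 5.5e-05 for r and 0.00111 for rho, and r without the 2 mice farthest from the median was at least 0.858. Centred on the series means, r was 0.952, 0.953 and 0.954.

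Other pairs were alike to different degrees. Col1a1 with Col1a2 had r = 0.963, 0.961 and 0.944 (rho = 0.979, 0.945 and 0.927, adjusted permutation p at most 5.5e-05 for r and 0.000495 for rho). Col6a1 with Col6a2 had r = 0.979, 0.967 and 0.935 (rho = 0.979, 0.891 and 0.9, adjusted permutation p at most 0.000178 for r and 0.00155 for rho), and each r of both pairs stayed at or above 0.854 without the 2 farthest mice. Col4a3 with Col4a4 had r = 0.92, 0.954 and 0.784 (rho = 0.881, 0.8 and 0.727, adjusted permutation p at most 0.00658 for r and 0.0246 for rho), and r was at least 0.715 without the 2 farthest. No relation passed for Col4a5 with Col4a6, whose 5′ ends lie further apart (r = -0.168, 0.764 and 0.288, rho = -0.105, 0.0727 and 0.282), but centred on the series means the PBS value passed by r (0.747, adjusted permutation p = 0.0334) and not by rho (0.4, adjusted permutation p = 0.309), and r was 0.364 without the 2 farthest mice. Col4a1 with Col4a3 had r = -0.241, 0.726 and 0.0472, and the PBS value (adjusted permutation p = 0.0321) rested on the 2 farthest mice, since r was 0.0531 without them and rho was 0.345. Centred on the series means, that PBS value did not pass (r = 0.596, adjusted permutation p = 0.0904). In PBS mice r went from 0.712 (adjusted permutation p = 0.0187) to 0.0367 without the 2 farthest mice for Col6a1 with Col6a3, for which rho was 0.418 (adjusted permutation p = 0.28), whereas centred on the series means r was 0.708 (adjusted permutation p = 0.0271) and stayed at 0.63 without the 2 farthest. Both genes of a pair come from the same library, whose composition they share.

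**Figure D5:**
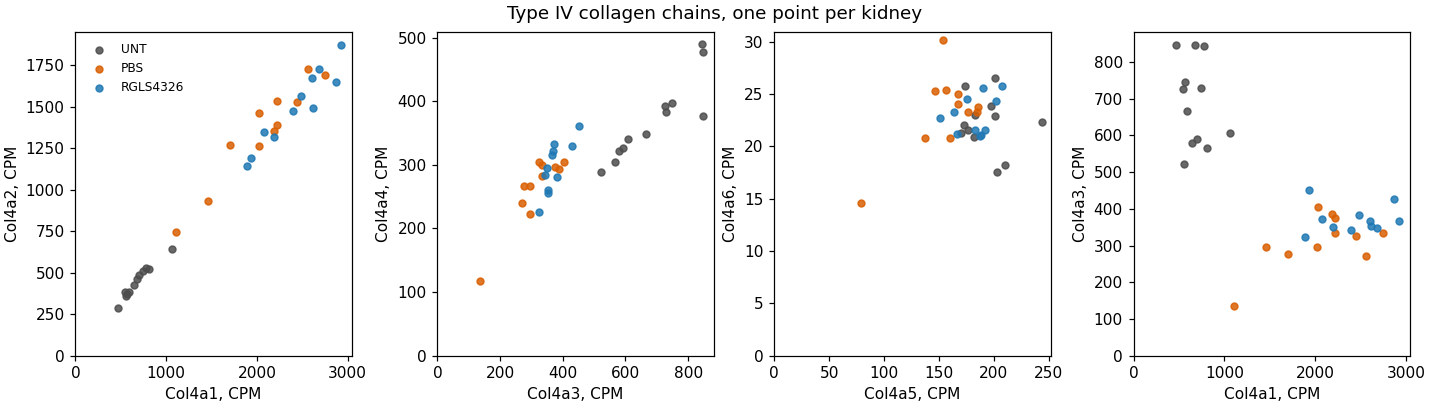
Levels in CPM of 4 pairs of type IV chains, one point per kidney, x axis the first and y axis the second gene of a pair, both from 0. Col4a1 and Col4a2 lie on 1 line through all groups, Col4a3 and Col4a4 split into UNT and Pkd2-KO clusters, Col4a5 and Col4a6 show little slope, and in the last panel UNT kidneys are high in Col4a3 and low in Col4a1, Pkd2-KO kidneys the reverse, with PBS replicate 9 low in both.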

How the data were processed

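Kidney RNA of 34 mice was sequenced from stranded polyA libraries (1 a mouse). The deposited files hold raw read counts per gene, made by the authors: per the labels and methods, reads were trimmed with Trim Galore, mapped with STAR to GRCm38 (mm10) and counted with HTSeq 0.6.1. Whether counting used strand is not given in the sources used here. Summary lines (reads in no gene, in more than 1 place or in overlapping genes) stayed out of library sizes.

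Groups came from the labels. Genes were filtered with filterByExpr (minimum count 10), scaled by TMM and fitted with edgeR 4.0.16 (quasi-likelihood, all 34 libraries, 1 mean a group), and p-values were adjusted by the Benjamini-Hochberg method over all 15644 genes tested. Intervals are 95% on 31 residual degrees of freedom and measure the uncertainty of a difference between group means, estimated from the spread between mice. Alternatives were DESeq2 1.42.0, other filters and scalings, covariates, a replicate block, single series and 1 library left out. The test was also run on simulated counts in which few genes differed, whereas 82.1% of genes were called between PBS and UNT mice. That run does not check the scaling where most genes differ. Correlations used 100000 permutations, and the smallest p they can give is 1e-05.

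Full values were given for type I, III and basement membrane chains and, in each class, for the genes with the 3 largest rises and 3 largest falls among those called in PBS compared with UNT, the 4 smallest p in RGLS4326 compared with PBS and the 3 highest levels per length. Of pathway lists the 3 smallest p were named, with others chosen after their values were seen. Members, lists and tests were chosen with earlier results of these data known.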

Additional observations from a re-analysis of the deposited data

How the results depend on the processing

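Between PBS and UNT mice the count of genes that fell moved more with the processing than that of genes that rose. Of 41 collagen genes 38 were called, and the alternatives gave 32 to 39, with 32 when the fraction of reads outside genes (the no-gene share) was a covariate. The share of all genes called was 82.1%, 70.2% with that covariate and 72.5%, 71.4% and 64.8% in series 1, 2 and 3. The 26 higher ranged from 24 to 27 and the 12 lower from 7 to 12, and in RGLS4326 compared with UNT mice the 26 higher from 24 to 28 and the 9 lower from 3 to 9. Alternatives tested 40 to 44 collagen genes, and the 39 and the 28 came without the filter on low counts, where 44 were tested. Over all 41 genes the fold change turned sign for 3 in series 2, where Col6a5 was called lower, and for Col9a3 with the no-gene share. Among the 24 genes described in full only Col4a6, not called, did (-0.000896 in series 2).

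The 9 calls of RGLS4326 compared with PBS depended on it too. They became 0 with the no-gene share as a covariate, 8 without PBS replicate 9 (collagen median 0.12 against 0.17), 5 when only the 2 groups compared were fitted (Col19a1 and Col25a1 were then below the filter and not tested), and 0, 3 and 0 in series 1, 2 and 3 alone. The share of all genes called fell too, from 33.8% to 0.569% with the no-gene share. It was 26% without PBS replicate 9, 29.2% with the 2 groups and 0.343%, 25.5% and 0% in the series. Of the 9 genes, Col14a1 (0.40), Col15a1 (0.38) and Col4a5 (0.23) had log2 fold changes under 0.5. Fibrillar calls (1) became 0 with the no-gene share and 0 in series 1 and series 3. Basement membrane calls (2) became 1 with the series as a covariate, with the 2 groups compared and without PBS replicate 9 (an alternative chosen after seeing the data), and 0 with the no-gene share, in each series and at a log2 fold change over 0.5. Other collagen calls (6) became 0 with the no-gene share, 3 with the 2 groups compared and 0, 2 and 0 in the 3 series. With the series as a covariate the total stayed at 9, with Col4a5 lost and a gene outside the first 9 gained. In each series fewer mice were fitted, and otherwise the cause was not tested.

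Over all 41 genes, log2 fold changes of RGLS4326 compared with PBS turned sign for 5 with the no-gene share and for 13, 7 and 5 in series 1, 2 and 3. Among the 24 described in full they did with the no-gene share for Col11a2 (-0.25), Col18a1 (0.054), Col20a1 (-0.13) and Col24a1 (-0.065). In series 1 they did for Col11a1 (-0.037), Col12a1 (-0.19), Col17a1 (0.047), Col18a1 (0.0022), Col1a2 (-0.067), Col20a1 (-0.041), Col24a1 (-0.086) and Col6a1 (-0.0056). In series 2 they did for Col11a1 (-0.12), Col1a2 (-0.037) and Col4a2 (-0.091), and in series 3 for Col1a1 (0.15) and Col4a6 (0.082). None of these was called. Against UNT mice 5, 2 and 1 of the 41 turned in the series and, of those described in full, Col4a5 turned in series 1 (0.034), and Col4a6 in series 1 (-0.051) and series 2 (-0.013).

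With replicate numbers as a replicate block, 38, 9 and 35 collagen genes were called in PBS compared with UNT, RGLS4326 compared with PBS and RGLS4326 compared with UNT, as without it. For the genes described in full, 255, 217 and 224 of the values under the alternatives kept direction and side of the threshold in these comparisons, and 8, 28 and 13 kept the direction but were not called. The numbers share only a name, since same-numbered mice did not deviate together. Genes near 1 CPM had few reads, which limits their precision.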
